A study of Homo sapiens with 6 samples.

Results

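The transforming growth factor beta (TGF-beta) ligands TGFB1, TGFB2 and TGFB3, the receptors TGFBR1, TGFBR2 and TGFBR3, the signal transducer SMAD3 and the feedback genes SMAD7, SKIL and PMEPA1 were followed in RNA sequencing of LX-2 cells. These 10 genes were taken by their symbols from a table of 33900 genes, without regard to how they changed. LX-2 is an immortalised human hepatic stellate cell (HSC) line, labelled wild type, so every sample carried the changes of that line. 3 samples were treated with rhSema3C, recombinant human Semaphorin 3C, at 300 ng/ml for 48 h, and 3 samples received PBS for 48 h. All samples were grown in medium with fetal bovine serum, and no group was given TGF-beta itself. The comparison addressed how Sema3C regulates HSCs. The labels call the samples biological replicates without saying whether they were separate cultures, so the p-values measure the spread between these samples, part of which may be technical.

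TGF-beta is secreted as an inactive complex in which the mature dimer is held by its own propeptide, and proteases, integrins and matrix proteins set it free. The active dimer binds TGFBR2, which recruits and phosphorylates TGFBR1, while TGFBR3 (betaglycan) is a co-receptor that presents ligand and is needed most for TGFB2. TGFBR1 phosphorylates SMAD2 and SMAD3, which join SMAD4 and enter the nucleus. The target genes include inhibitors of the pathway itself. SMAD7 blocks TGFBR1 and brings ubiquitin ligases to it, SKIL (SnoN) is a co-repressor that binds SMAD complexes, and PMEPA1 keeps SMAD2 and SMAD3 from the receptor. In the liver, TGF-beta is the best known signal that turns quiescent HSCs into matrix-producing myofibroblasts.

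The libraries held 68267808 to 89245585 counts. Mitochondrially encoded genes took 4.75 to 5.42% of the counts in PBS and 3.73 to 3.93% in rhSema3C. Leaving these genes out of the scaling gave 4480 genes higher and 4346 lower over the whole table, against 4490 and 4339 with them. The replicates of a group differed by more than counting noise in all 6 pairs, and no library stood apart (root mean square log2 deviation 0.146 to 0.156). Of 14 stellate cell and myofibroblast markers, 9 had a mean of at least 1 FPKM (fragments scaled to transcript length and library size), and the list's summed level was 1499 to 1552 FPKM in PBS and 1195 to 1261 in rhSema3C. DES, LRAT, COL1A2 and PDGFRA, which define HSCs or fibroblasts, were below 0.5 FPKM in every library. Macrophage markers, of which 2 of 4 (CD68 and CD14) had a mean of at least 1 FPKM, summed to 95.03 to 104 FPKM in PBS and 67.2 to 73.0 in rhSema3C, cholangiocyte markers (2 of 4) to 12.4 to 14.7 and 8.60 to 9.31, hepatocyte markers (1 of 5) to 2.67 to 3.16 and 3.52 to 4.16, and endothelial markers (0 of 5) to 0.803 to 1.06 and 1.27 to 1.70. The part of these markers in the results below was not tested. The hepatocyte marker ALB did not exceed 0.0310 FPKM and the leukocyte marker PTPRC did not exceed 0.0143.

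Of the 10 genes, 9 reached the minimum mean of 0.5 FPKM and entered the test, edgeR's quasi-likelihood test on counts with Benjamini-Hochberg adjustment over 14178 genes. TGFBR1 and TGFBR3 were higher with rhSema3C, 6 genes (TGFB1, TGFB2, TGFBR2, SMAD3, SKIL and PMEPA1) were lower, and SMAD7 did not pass an adjusted p of 0.05. The background was high, with 62.3% of all genes tested called at this threshold, 31.7% higher and 30.6% lower. PMEPA1 passed the filter on low values only through its level in PBS, so the number of calls is no support for the group of genes, and the fit with no filter is given beside its values. TGFB2 and PMEPA1 were also past a fold change of 2, as were 2.12% of the genes tested among the lower and 3.42% among the higher. On the CPM scale (counts scaled to library size and by the trimmed mean of M-values, TMM), the groups did not overlap for 2 genes that were higher and 5 that were lower, and they overlapped for TGFB3, SMAD7 and SKIL. Over all genes tested, 34.6% had every rhSema3C value above every PBS value and 33.3% had every value below.

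**Figure D1:**
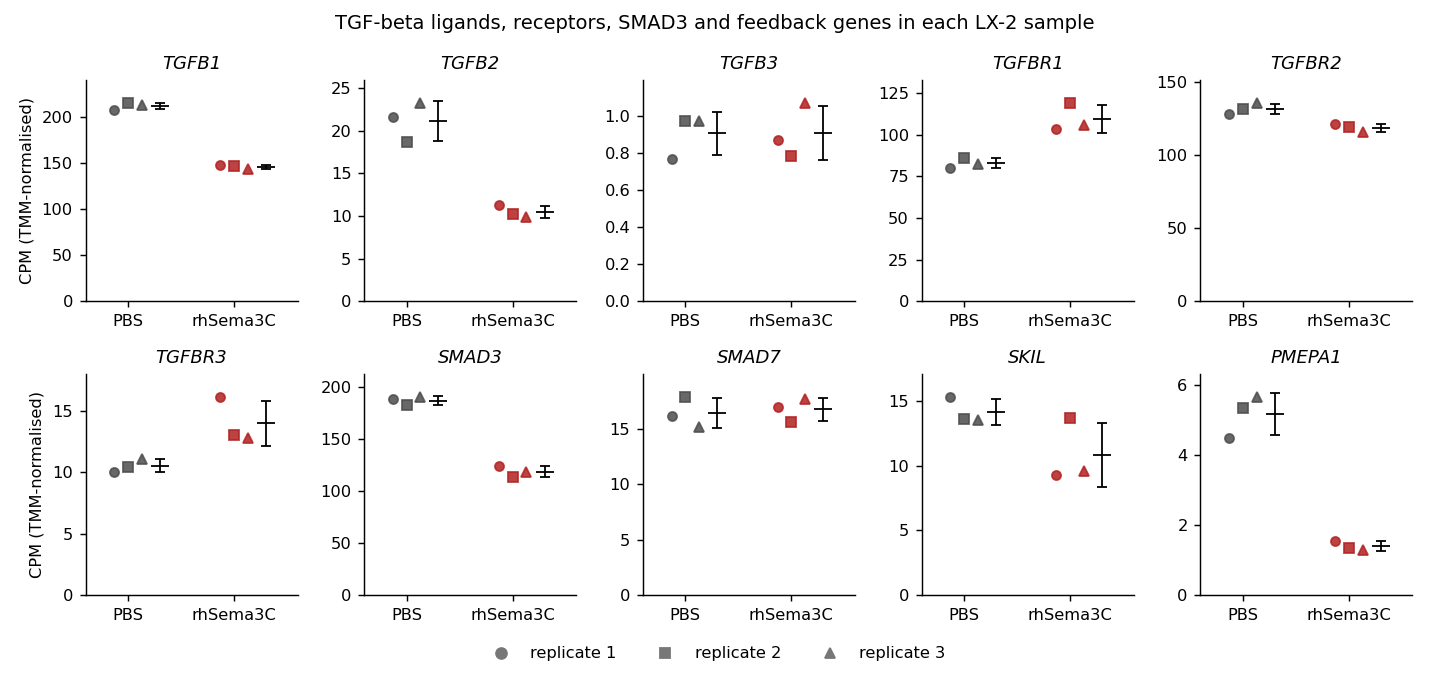
Normalised counts (CPM, vertical axis from 0) of the 10 genes in the 3 PBS and 3 rhSema3C samples, 1 symbol per replicate, with the mean and SD as a bar beside the points. The groups are apart in 7 panels and overlap for TGFB3, SMAD7 and SKIL, where rhSema3C replicate 2 lies among the PBS samples.

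The ligands came down where they were expressed. TGFB1, the ligand with the highest level in these cells, stood at 208, 215 and 213 CPM in the PBS samples and at 148, 147 and 143 CPM in the rhSema3C samples. Every treated sample was below every control, and the replicates of each group lay close together. The mean decreased by 31.2%, from 212 ± 3.75 CPM to 146 ± 2.46 CPM (SD, n = 3 each), and the log2 fold change was -0.54 (SE 0.04, 95% interval -0.62 to -0.45, edgeR adjusted p = 5.1e-07). TGFB1 lies on chromosome 19 from 41301587 to 41353922 on the minus strand of GRCh38, and 5 other genes of the table overlap its span, 4 of them on the opposite strand. The counting is not stated to use strand, so reads in the shared stretches cannot be assigned with certainty. The largest of these neighbours, HNRNPUL1, an RNA-binding protein gene, overlaps it from 41301587 to 41307598 and was itself lower, at 560, 578 and 564 CPM in PBS against 392, 359 and 377 CPM in rhSema3C (log2 fold change -0.59, SE 0.04, edgeR adjusted p = 6e-07). CCDC97, also on the opposite strand, had a log2 fold change of -0.61 (SE 0.07, edgeR adjusted p = 1.6e-05). The part of these neighbours in the TGFB1 value was not tested. A lower level in bulk RNA does not tell fewer cells that express a gene from less RNA per cell. From qRT-PCR, the paper reports more TGFB1 RNA in LX-2 cells given rhSema3C, the opposite of the direction here. From ELISA, it also reports more secreted TGFB1 protein. Why the sequencing differs from these assays was not tested.

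TGFB2, the isoform that depends most on betaglycan, was measured at 21.6, 18.6 and 23.2 CPM with PBS and at 11.3, 10.2 and 9.90 CPM with rhSema3C. The lowest control was well above the highest treated sample. Its level was 2.02-fold lower after treatment (log2 fold change -1.01, SE 0.10, 95% interval -1.24 to -0.78, edgeR adjusted p = 8.2e-06). TGFB2 spans 218345336 to 218444619 on chromosome 1, plus strand, and its overlapping genes TGFB2-AS1 and TGFB2-OT1 held 5 and 22 counts over all libraries against 7403 for TGFB2. Patterns over the 6 libraries were compared by distance between mean-centred log2 CPM values, with a small offset added to each CPM before the logarithm. The nearest genes to TGFB2 were CCDC142, SOX9 and FAM207A. Their distances were 0.0842 to 0.109 and their log2 fold changes -0.98, -0.97 and -0.99.

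TGFB3 had the lowest level of the 10 genes in both groups. It gave 64 to 89 counts per library, or 0.771, 0.976 and 0.973 CPM in PBS and 0.870, 0.787 and 1.07 CPM in rhSema3C, and the groups overlapped. Its mean of 0.167 FPKM was under the filter. In a fit with no filter, where 24.8% of 33900 genes were called, its log2 fold change was -0.01 (SE 0.27, 95% interval -0.61 to 0.60, edgeR adjusted p = 0.99), an interval that leaves room for changes of either sign. TGFB3 (chromosome 14, 75958097 to 75981995, minus strand) lies wholly within IFT43 on the other strand, which held 6629 counts over the 6 libraries against 434, so that even these few counts are uncertain.

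The receptors did not move together. TGFBR1, the type I receptor kinase that phosphorylates SMAD2 and SMAD3, was at 80.2, 86.2 and 82.3 CPM in PBS and at 103, 119 and 106 CPM in rhSema3C. All treated samples were higher than all controls, and replicate 2 was the highest of its group in both. The log2 fold change was 0.40 (SE 0.06, 95% interval 0.27 to 0.52, edgeR adjusted p = 0.0001). TGFBR1 is annotated on chromosome 9 from 99104038 to 99154192, plus strand, and the only gene that overlaps it, an rRNA pseudogene, held 13 counts.

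TGFBR2, the ligand-binding type II receptor, showed the smallest of the called differences among these genes. It stood at 128, 132 and 136 CPM in PBS and at 121, 120 and 116 CPM in rhSema3C, close to each other but without overlap. The log2 fold change was -0.15 (SE 0.04, 95% interval -0.24 to -0.06, edgeR adjusted p = 0.0071). This call moved with the scaling. It was -0.04 when only the total of each library was used (edgeR adjusted p = 0.38), and on log2(TPM + 1) it turned to 0.08 (limma adjusted p = 0.17), where TPM is FPKM rescaled to a fixed total per library. These scalings moved the median of all genes by 0.11 and 0.20 on the log2 scale, and relative to that shift TGFBR2 was at -0.15 and -0.13. TGFBR2 spans 30606601 to 30694142 on chromosome 3, plus strand, and overlaps no other gene of the table.

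TGFBR3 rose from a low level. It measured 10.1, 10.5 and 11.1 CPM in PBS against 16.1, 13.1 and 12.8 CPM in rhSema3C, with replicate 1 the highest of the treated samples and no overlap. On the log2 scale the rise was 0.41 (SE 0.11, 95% interval 0.17 to 0.66, edgeR adjusted p = 0.0074). TGFBR3 (chromosome 1, 91680343 to 91886151, minus strand) overlaps no other gene. UBA6-AS1, PLEKHA8P1 and LRIG3 were nearest to it in pattern, at distances of 0.125 to 0.134 over the 6 libraries.

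SMAD3, the receptor-activated SMAD that binds DNA, was lower in every treated sample, at 188, 182 and 190 CPM in PBS and 124, 114 and 118 CPM in rhSema3C. The difference was -0.66 on the log2 scale (SE 0.04, 95% interval -0.75 to -0.56, edgeR adjusted p = 3e-07), and the mean decreased by 36.5%. Among all genes tested, 17.9% had a larger absolute change. SMAD3 lies on chromosome 15 from 67063763 to 67195169, plus strand, and the lncRNA within it held 4 counts against 72106.

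**Figure D2:**
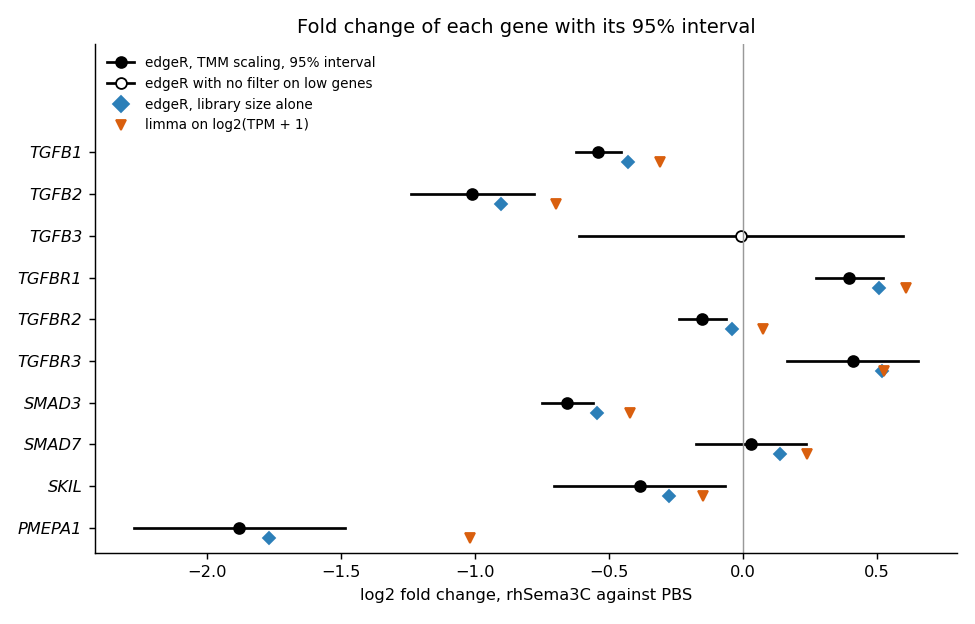
Log2 fold change of rhSema3C against PBS (horizontal axis) for each gene, with the edgeR estimate and its 95% interval in black, TGFB3 as an open symbol from the fit with no filter, and the estimates with library size alone (diamonds) and on log2(TPM + 1) (triangles) beside it. TGFBR2 is the only one of the genes called in the main test whose estimate crosses 0, reaching 0.08 on the TPM scale, and PMEPA1 lies farthest from 0 at -1.88.

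Of the feedback genes, PMEPA1 was lower by the widest margin, SKIL passed the test narrowly and SMAD7 did not pass it. All 3 are classical direct targets of SMAD complexes, and their promoters are shown here so that the measured levels can be set beside the sequence at their start. The windows run from 250 bases before to 50 bases after a RefSeq start site (GRCh38.p14), 5′ to 3′ on the gene's strand, and capitals mark matches on either strand to CAGAC (a SMAD-binding element, GTCTG on the other strand) or GGCGC (a GC-rich SMAD motif, GCGCC on the other strand).
SMAD7, chr18:48950916-48951215, minus strand: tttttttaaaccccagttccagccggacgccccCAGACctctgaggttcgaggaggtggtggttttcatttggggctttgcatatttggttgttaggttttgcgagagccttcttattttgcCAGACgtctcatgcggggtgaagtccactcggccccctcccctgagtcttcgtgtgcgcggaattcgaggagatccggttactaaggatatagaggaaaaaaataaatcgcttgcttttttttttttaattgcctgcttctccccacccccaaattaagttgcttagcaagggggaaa
SKIL, chr3:170357465-170357764, plus strand: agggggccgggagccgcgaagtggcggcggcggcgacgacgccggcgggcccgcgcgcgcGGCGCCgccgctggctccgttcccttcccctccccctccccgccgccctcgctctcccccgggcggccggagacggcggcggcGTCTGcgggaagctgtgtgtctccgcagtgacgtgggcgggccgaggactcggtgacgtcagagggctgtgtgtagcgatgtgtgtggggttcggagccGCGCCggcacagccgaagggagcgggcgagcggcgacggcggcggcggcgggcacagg
PMEPA1, chr20:57711423-57711722, minus strand: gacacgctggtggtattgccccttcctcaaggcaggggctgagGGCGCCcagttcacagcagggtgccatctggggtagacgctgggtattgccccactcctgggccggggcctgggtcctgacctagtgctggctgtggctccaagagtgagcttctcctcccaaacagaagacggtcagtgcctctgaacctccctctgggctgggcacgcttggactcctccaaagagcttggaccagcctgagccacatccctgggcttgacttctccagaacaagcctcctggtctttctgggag
SMAD7 held 2 matches to the SMAD-binding element, SKIL held 1 such match and 3 matches to the GC-rich motif, of which 2 overlap in a palindrome, and PMEPA1 held 2 matches to the GC-rich motif that overlap in the same way. The SMAD-binding element was found in 45.3% and the GC-rich motif in 48.6% of all 35116 promoter windows of this length, so that a match is common. The longer SMAD element GTCTAGA, searched on both strands and present in 1.44% of windows, was in none of the 3 windows shown. The AP-1 motif TGACTCA, present in 4.95% of windows, was in none of them either. With 1 window used per gene, 5 of the 10 genes held the SMAD-binding element (TGFB2, TGFBR1, SMAD3, SMAD7 and SKIL), beside 45.3% of all windows. The GC-rich motif was in 6, beside 48.6%. The AP-1 motif was in 1 (TGFBR2), beside 4.95%, and the longer element was in 0, beside 1.44%. The SMAD7 start site used lies 1087 bases from the end of the gene in the expression table. The SKIL and PMEPA1 sites lie 37 and 64 bases from theirs, and the SMAD3 site lies 1839 bases away. SMAD7 has 3 windows, PMEPA1 has 4, SMAD3 has 5, TGFBR1 has 8, and TGFB3 and TGFBR2 have 2 each. For each of them only the nearest was searched. A motif absent from the window used may be present at another start of the gene, and a motif found may be absent there, which was not tested.

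SMAD7, the inhibitory SMAD, was at 16.2, 17.8 and 15.1 CPM in PBS and at 16.9, 15.6 and 17.6 CPM in rhSema3C. The groups overlapped fully. The log2 fold change was 0.03 (SE 0.09, 95% interval -0.17 to 0.24, edgeR adjusted p = 0.79). On log2(TPM + 1) it was 0.24 (limma adjusted p = 0.032), and 0.04 relative to the shift of all genes on that scale. SMAD7 spans 48919853 to 48952052 on chromosome 18, minus strand.

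SKIL stood at 15.3, 13.6 and 13.6 CPM in PBS and at 9.27, 13.7 and 9.58 CPM in rhSema3C. The rhSema3C replicates 1 and 3 were below every control, while replicate 2 was level with them. With all samples the log2 fold change was -0.39 (SE 0.14, 95% interval -0.70 to -0.07, edgeR adjusted p = 0.036). The call was lost when any of the libraries other than rhSema3C replicate 2 was left out (-0.42 to -0.29, edgeR adjusted p 0.059 to 0.12), and without rhSema3C replicate 2 the value was -0.59 (edgeR adjusted p = 0.00098). SKIL spans 170357678 to 170396835 on chromosome 3, plus strand.

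PMEPA1 had the largest change of these genes. It was at 4.50, 5.35 and 5.66 CPM in PBS and at 1.55, 1.36 and 1.30 CPM in rhSema3C, from 372 to 385 counts per library in PBS and 108 to 134 in rhSema3C. The groups were far apart. The level was 3.68-fold lower (log2 fold change -1.88, SE 0.18, 95% interval -2.27 to -1.49). Since PMEPA1 reached the filter only through PBS, its test is taken from the fit of all 33900 genes with no filter, where the log2 fold change was -1.89 (edgeR adjusted p = 3.7e-05). PMEPA1 spans 57648392 to 57711536 on chromosome 20, minus strand, and shares its first bases with the antisense lncRNA NKILA, which held 496 counts over the 6 libraries against 1496 and whose groups overlapped (1.27 ± 0.542 CPM in PBS and 0.791 ± 0.317 CPM in rhSema3C, SD, n = 3 each). The nearest genes in pattern were CCND1 (cyclin D1), MYL9 (a myosin light chain of contractile cells) and CD3EAP. Their distances were 0.206 to 0.244 and their log2 fold changes -1.59, -1.46 and -1.54. The offset used for these distances makes a change at low CPM smaller, and PMEPA1 had 1.30 to 1.55 CPM in rhSema3C. These genes were therefore matched to a smaller change than the -1.88 of PMEPA1.

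Levels of different genes were compared per transcript length, in FPKM. The order between genes therefore depends on the length that the authors used for each gene. In PBS the order was TGFB1 (61.2 ± 0.975), SMAD3 (18.7 ± 0.506), TGFBR2 (18.1 ± 0.522), TGFBR1 (11.4 ± 0.365), TGFB2 (3.27 ± 0.377), SMAD7 (3.04 ± 0.237), SKIL (1.70 ± 0.122), TGFBR3 (1.15 ± 0.0596), PMEPA1 (0.842 ± 0.0978) and TGFB3 (0.161 ± 0.0205; SD, n = 3 each). The values of neighbours in this order overlapped for SMAD3 with TGFBR2 and for TGFB2 with SMAD7, and for no other neighbours. In rhSema3C TGFB1 was still the highest (45.2 ± 0.648 FPKM), followed by TGFBR2 (17.5 ± 0.365) and TGFBR1 (16.1 ± 1.23), whose values now overlapped, and only then by SMAD3 (12.8 ± 0.515). SMAD7 (3.34 ± 0.208) was next, above TGFB2 (1.74 ± 0.118), TGFBR3 (1.64 ± 0.211) and SKIL (1.40 ± 0.320), and PMEPA1 (0.245 ± 0.0230) and TGFB3 (0.174 ± 0.0275) came last. In this group TGFB2 overlapped TGFBR3, and TGFBR3 overlapped SKIL. On the FPKM scale TGFBR2 itself overlapped between the groups, at 17.6 to 18.6 in PBS and 17.1 to 17.8 in rhSema3C.

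**Figure D3:**
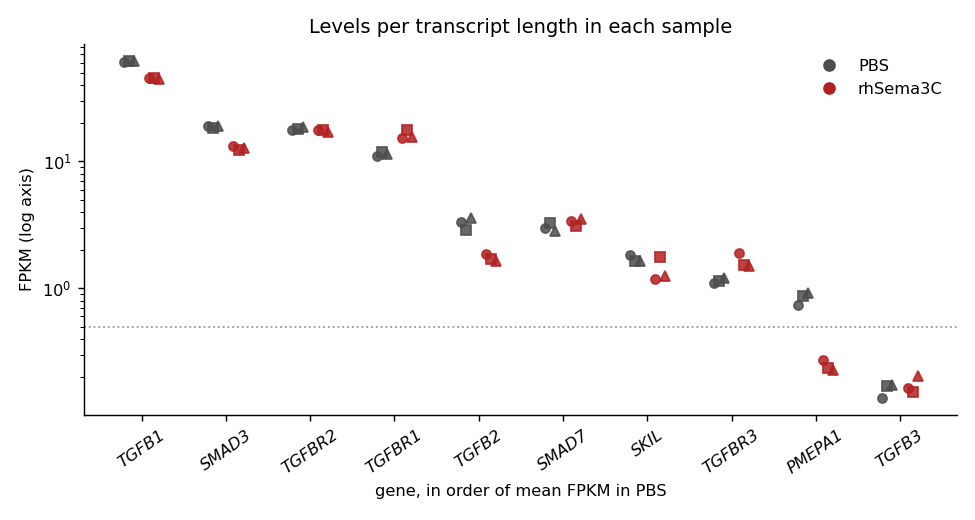
FPKM of each gene (log axis) in the PBS and rhSema3C samples, genes in order of their mean in PBS, with the filter of 0.5 FPKM as a dotted line. TGFB1 is the highest gene in both groups, TGFBR1 moves up to TGFBR2 with rhSema3C, and PMEPA1 drops through the line.

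Proportions within a library do not depend on scaling between libraries, and these were chosen after the values were seen. TGFB1 made up 94.7 ± 0.549% of the summed FPKM of the 3 ligands in PBS and 95.9 ± 0.194% in rhSema3C, and TGFB2 made up 5.07 ± 0.558% and 3.70 ± 0.208%. The sum of the ligands, which is not a proportion and does depend on scaling between libraries, was 64.6 ± 1.06 FPKM in PBS and 47.1 ± 0.709 FPKM in rhSema3C. The ligand pool was thus nearly all TGFB1 in both groups. Of the summed receptor FPKM, TGFBR1 took 37.2 ± 0.893% in PBS and 45.7 ± 2.10% in rhSema3C, TGFBR2 took 59.0 ± 0.791% and 49.6 ± 1.51%, and TGFBR3 took 3.75 ± 0.122% and 4.66 ± 0.650%. The ratio of TGFBR1 to TGFBR2 was 0.627, 0.656 and 0.609 in PBS and 0.856, 0.997 and 0.915 in rhSema3C. The ratio of SMAD2 to SMAD3, the pair of SMADs that TGFBR1 activates, was 0.114, 0.116 and 0.104 in PBS and 0.267, 0.291 and 0.276 in rhSema3C. For each of these measures the groups did not overlap, and the exact two-sided permutation test gave p = 0.1, the smallest that 3 against 3 samples allow. The sizes of the shares and ratios depend on the length that the authors used for each gene. In PBS, SMAD2 stood at 81.1 CPM and 2.09 FPKM, and SMAD3 at 187 CPM and 18.7 FPKM. The ratio of SMAD2 to SMAD3 is therefore read only between the groups, not as the excess of SMAD3 over SMAD2.

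**Figure D4:**
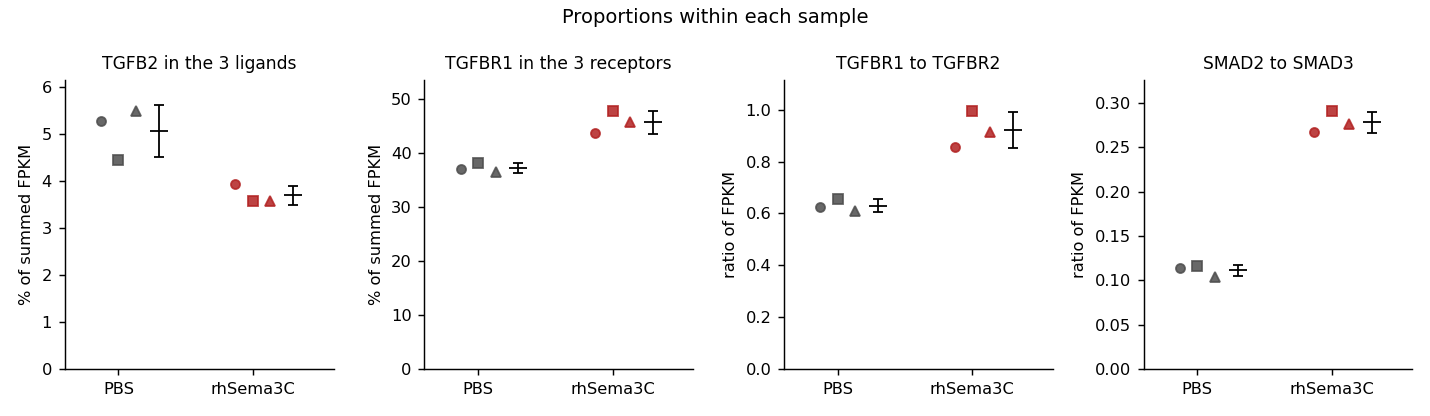
Share of TGFB2 in the 3 ligands, share of TGFBR1 in the 3 receptors (% of summed FPKM), and ratios of TGFBR1 to TGFBR2 and of SMAD2 to SMAD3 (ratio of FPKM), 1 symbol per replicate with mean and SD as a bar. The TGFB2 share is lower in all rhSema3C samples, and the other 3 measures are higher, the SMAD2 to SMAD3 ratio being 0.111 ± 0.00641 in PBS and 0.278 ± 0.0124 in rhSema3C.

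The other genes of the pathway were taken from 7 lists by role with 79 genes, 77 of them in the table and 66 tested. Of these, 28 were higher, 28 were lower and 10 did not pass, beside 31.7% higher and 30.6% lower over all genes tested. Their median log2 fold change was -0.01, beside 0.02 over all genes tested. Among genes for latency, activation and extracellular binding, 4 of 11 tested were higher and 7 were lower, beside 31.7% and 30.6% over all genes tested. Their median was -0.55, and it was -0.30 on log2(TPM + 1) and -0.23 over 16 genes with no filter. The latent TGF-beta binding protein LTBP1 (log2 fold change 0.64, SE 0.07), the microfibril protein FBN1 (0.36, SE 0.05) and the integrin subunit ITGAV (0.31, SE 0.07) were higher. THBS1, which activates latent TGF-beta, was at 96.3, 118 and 123 CPM in PBS and at 49.9, 39.9 and 50.7 CPM in rhSema3C (-1.27, SE 0.10, edgeR adjusted p = 1.4e-06). LRRC32 (GARP), which anchors latent TGF-beta on the cell surface, and FURIN, the protease that cleaves the TGF-beta precursor, had log2 fold changes of -1.10 (SE 0.19) and -0.96 (SE 0.07).

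Of the co-receptors and receptor regulators, 1 of 6 tested was higher and 4 were lower, beside 31.7% and 30.6% of all genes tested. The remaining gene was not called. The median was -0.37, and it was -0.12 with 2 genes lower on log2(TPM + 1) and -0.18 with 3 genes lower on log2(FPKM + 1). CD109, a membrane protein that binds TGF-beta, was higher (0.42, SE 0.07, edgeR adjusted p = 0.00018). Endoglin (ENG), the co-receptor related to betaglycan, went from 150, 158 and 159 CPM to 90.1, 83.1 and 81.5 CPM, a log2 fold change of -0.87 (SE 0.05, edgeR adjusted p = 8.9e-08), opposite in sign to that of TGFBR3. TGFBRAP1, a receptor-associated protein, had -0.61 (SE 0.05). ACVRL1, the alternative type I receptor, had -0.44 (SE 0.17, edgeR adjusted p = 0.041), a call that held in 7 of 17 fits. The related BMP and activin receptors had 3 of 6 tested higher (ACVR2B 0.46, ACVR1 0.39 and BMPR1A 0.31) and 0 lower in the main test. Over all genes tested, 31.7% were higher and 30.6% lower. With median-of-ratios scaling, with filterByExpr and with DESeq2, 1 of the list was lower. The median was 0.32, and it was 0.17 on log2(FPKM + 1) and 0.13 over the 3 genes with at least 5 FPKM. ACVR2B (0.411 FPKM in PBS and 0.606 in rhSema3C) passed the filter only through rhSema3C, and so did ACVR2A, which was not called, so these counts are no support for the list. The ACVR2B call held in 13 of 17 fits and was lost without PBS replicate 1 (0.38, edgeR adjusted p = 0.062) and without rhSema3C replicate 2 (0.35, edgeR adjusted p = 0.072). The TAK1 branch is the kinase route from the receptors that does not use SMADs. In it 3 of 4 were higher (MAP3K7 0.49, TRAF6 0.36 and TAB2 0.35), beside 31.7% of all genes tested. Its median was 0.36.

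Of the SMAD proteins and their regulators, 11 of 17 tested were higher and 4 were lower, beside 31.7% and 30.6% over all genes tested. Their median was 0.44, and it was 0.21 over the 7 genes with at least 5 FPKM. SMAD2, the partner of SMAD3 at the receptor, was at 83.8, 82.3 and 77.1 CPM in PBS and at 129, 129 and 127 CPM in rhSema3C (0.66, SE 0.04, edgeR adjusted p = 3e-07). SMAD1, a BMP-activated SMAD, had 0.66 (SE 0.11) and the co-repressor TGIF1 had 0.96 (SE 0.05). Its relative TGIF2 (-0.70, SE 0.09), the ubiquitin ligase SMURF2 (-0.61, SE 0.05) and SKI (-0.51, SE 0.05), the co-repressor related to SKIL, were lower. Each of these 6 genes was called in every alternative in which it was fitted.

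Among 19 tested genes that TGF-beta induces in fibroblasts, 5 were higher, 11 were lower and 3 did not pass, beside 31.7% higher and 30.6% lower over all genes tested. The median was -0.49, and it was -0.26 on log2(TPM + 1) and -0.32 with no filter. The largest falls were in the contractile genes TAGLN (432, 421 and 371 CPM in PBS and 59.7, 64.6 and 64.1 CPM in rhSema3C, log2 fold change -2.70, SE 0.06, edgeR adjusted p = 2.4e-10) and CNN1 (-0.99, SE 0.09) and in CCN2, the connective tissue growth factor gene (164, 169 and 172 CPM against 30.7, 32.5 and 32.1 CPM, -2.40, SE 0.05, edgeR adjusted p = 6.8e-11). The genes of the list that rose most were CDKN2B (1.26, SE 0.14), a cell cycle inhibitor, LOX (1.05, SE 0.05), which cross-links collagen, and SNAI2 (1.04, SE 0.05), a transcription factor of mesenchymal cells. The list thus held called genes of both signs with changes above a fold of 2. Of 3 BMP-SMAD targets tested, 1 was higher and 2 were lower, beside 31.7% and 30.6% over all genes tested. ID2 was higher (0.90, SE 0.15), and ID3 (-0.60, SE 0.08) and ID1 (-0.28, SE 0.08, edgeR adjusted p = 0.014) were lower. The groups overlapped for ID1, and its call held in 11 of 18 fits.

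**Figure D5:**
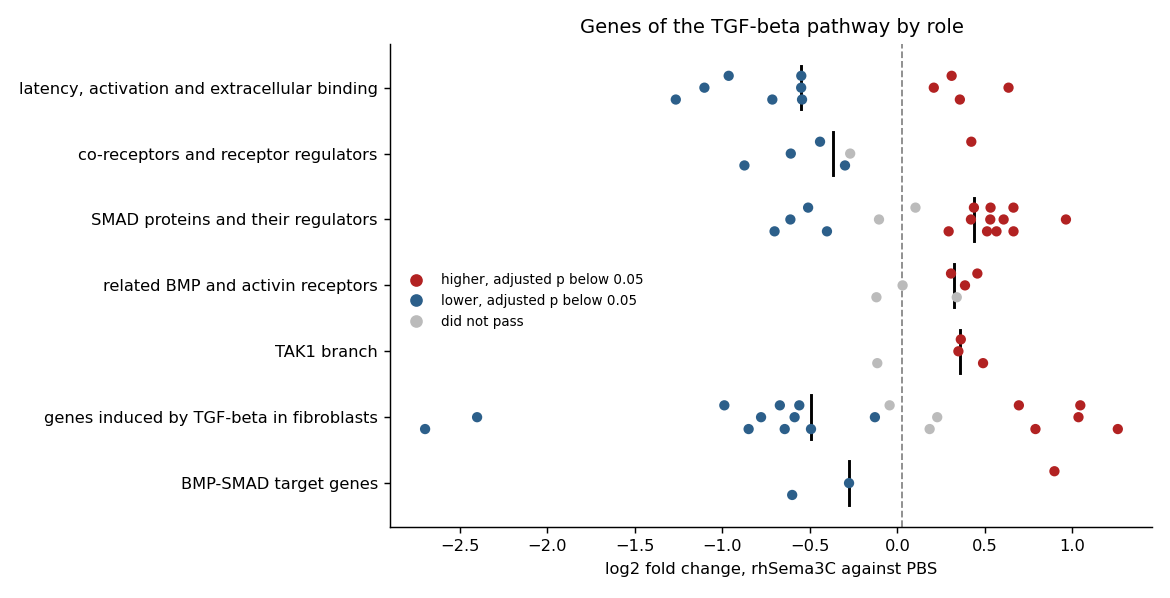
Log2 fold change of rhSema3C against PBS (horizontal axis) of the tested genes of 7 pathway lists, 1 point per gene, coloured by whether the gene was called higher, called lower or did not pass, with the list's median as a bar and the median of all genes tested (0.02) as a dashed line. The extracellular and co-receptor lists and the induced genes have medians below the dashed line, at -0.55, -0.37 and -0.49, and the SMAD, related receptor and TAK1 lists have medians above it, at 0.44, 0.32 and 0.36.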

How the data were processed

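RNA was prepared from LX-2 cells treated with rhSema3C (300 ng/ml, 48 h) or PBS, 3 samples each, and, per the labels, libraries were made with an mRNA-seq kit. The deposited table gave, for each sample, a column of raw counts and a column of FPKM, the authors' scaling of fragments to transcript length and library size. Aligner, counter, strandedness and genome build are not given in the sources used here. Coordinates in the table lie on GRCh38, where 58.2% of its genes had the same span and strand as in GENCODE v29, and the table held 0 genes without counts. Rounding, transcript length and reads shared by overlapping genes in that upstream step can affect the values.

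The deposited counts of genes whose FPKM averaged 0.5 or more across samples were tested with edgeR 4.0.16 in R 4.3.3 (quasi-likelihood F-test, TMM factors, rhSema3C against PBS, no covariate), with Benjamini-Hochberg adjustment and a threshold of 0.05. Groups and replicate numbers came from the labels. CPM used TMM-scaled library sizes. FPKM set the filter on low values and gave the levels compared between genes, the marker levels, the proportions and the ligand sum. It also entered the limma alternatives, and some FPKM values are given by group. At depths of 68267808 to 89245585 counts, precision was set mainly by the spread between samples for genes with many counts (common biological coefficient of variation 0.117). For genes with few counts, such as TGFB3 (64 to 89 per library) and PMEPA1 (108 to 134 in rhSema3C), counting noise also limited it. Alternatives were other scalings, filters and pseudocounts, DESeq2 1.42.0, limma 3.58.1, a replicate block and leaving out each sample. The test was checked on simulated counts. Far fewer genes were changed in the simulation than were called here, so it cannot show how the test or its scaling behaves at this background. The fold-change rule in the study's methods, a fold above 2 with an unadjusted p below 0.05, was run as another call.

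The genes and lists were chosen with earlier results of these data known, so no list was tested as a set. Named were the 10 genes, the 3 called genes that rose most and the 3 that fell most in each pathway list, the 3 genes nearest in pattern to the ligand, receptor and feedback gene of largest change, and, chosen after their values were seen, neighbours that overlap a named gene. Promoter windows came from RefSeq (GRCh38.p14), which had 1 or more for all 10 genes, and the window nearest to the gene's end in the table was used. Protein sequences were not used here.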

Additional observations from a re-analysis of the deposited data

How the results depend on the processing

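Over the alternatives, the 10 genes gave 149 values, of which 131 kept direction and side of the threshold, 14 lost the call, 1 gained it (SMAD7 on log2(TPM + 1), 0.24, adjusted p = 0.032) and 3 changed sign: TGFBR2 on log2(TPM + 1) at 0.0754, SMAD7 without PBS replicate 3 at -0.0215 and SMAD7 without rhSema3C replicate 3 at -0.0079 (SMAD7 ranged from -0.0215 to 0.0964 when 1 sample was left out). TGFB1, TGFB2, TGFBR1, TGFBR3 and SMAD3 were called in every fit. Their ranges were -0.56 to -0.31, -1.09 to -0.64, 0.33 to 0.61, 0.29 to 0.53 and -0.69 to -0.42. PMEPA1 ranged from -1.97 to -0.56 and was called in 17 of 17 fits. Most of these used the filter that it passed only through PBS, so they are no support for its call. With no filter its log2 fold change was -1.89 (edgeR adjusted p = 3.7e-05). TGFBR2 was called in 13 of 18 fits and SKIL in 7 of 17. The 31 other named genes gave 514 values, of which 493 stayed the same, 21 lost the call and 0 changed sign. With a minimum of 5 FPKM, 4 of the genes stayed in the test (1 higher, 2 lower), 14 of 39 pathway genes were higher and 18 lower, and 2630 of 6971 genes were higher and 2602 lower, since fewer genes were tested. By the rule of a fold above 2 with p below 0.05, 2 of the genes (TGFB2 and PMEPA1) were called in place of 8. The limit of the filter holds for PMEPA1 in both counts. Over all genes, 4490 were higher and 4339 lower, 50.9% of the calls being higher, against 6934 and 2428 (74.1%) on log2(TPM + 1), 5654 and 3415 (62.3%) with library size alone, and 61.3% and 61.2% on log2(FPKM + 1) and log2(FPKM + 0.1). Median-of-ratios scaling, TMM without mitochondrial genes, filterByExpr and DESeq2 left between 49.6% and 50.8% higher. Leaving out 1 sample gave 4065 to 4301 genes higher and 3991 to 4203 lower.

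Samples with the same replicate number did not deviate together (correlations of -0.084, -0.058 and -0.041), so the numbers do not pair them. A fit with the replicate block called 4221 genes higher and 4120 lower, and the call on ACVRL1 was lost (-0.45, adjusted p = 0.06).

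With 3 samples a group, exact tests on single values cannot go below p = 0.1. The interval for TGFB3, -0.61 to 0.60, does not show whether a change within it took place, and the overlaps of TGFB1, TGFB3 and PMEPA1 with genes on the other strand leave the source of part of their counts unknown.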
